A study of Mus musculus with 16 samples.

Results

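The 7 genes described here encode the presentation of antigen on MHC class II: the chains *H2-Aa*, *H2-Ab1* and *H2-Eb1*, the invariant chain *Cd74*, the peptide loading factors *H2-DMa* and *H2-DMb1*, and the transactivator *Ciita*. They were chosen by gene symbol among the 49452 genes of each table, and all 7 had 1 row per mouse. Their RNA was measured in tdTomato-positive cells sorted from the left lung lobe of 16 mice, 4 in each of 4 groups, by SmartSeq2, a full-length cDNA protocol for small amounts of RNA. All mice carried the *tdTomatoflox* reporter, on a background that the paper gives as C57BL6. Lungs were taken on day 14 after saline or bleomycin, at 11 weeks of age. *Acta2-CreERT2; tdTomatoflox* mice (*Acta2-tdT*), in which Cre is driven by the promoter of the smooth muscle actin gene, received tamoxifen in food at 400 mg/kg from day 5 after saline (mice 1 to 4) or bleomycin (mice 5 to 8). *Pdgfra-CreERT2; tdTomatoflox* mice (*Pdgfra-tdT*), in which Cre is driven by the promoter of the PDGF receptor α gene, received 5 intraperitoneal injections of 3 mg tamoxifen at 6 weeks of age and later saline (mice 1 to 4) or bleomycin (mice 5 to 8). The label marks any cell in which the promoter was active under tamoxifen, and its descendants, so line and tamoxifen schedule cannot be told apart.

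MHC class II molecules are pairs of an α and a β chain that carry peptides from endocytosed protein to the surface of a cell, where CD4+ T cells read them. The invariant chain Cd74 guards the groove of a new class II molecule until it reaches the endosome, where cathepsins cut it down to a short peptide and the H2-DM pair exchanges that peptide for an antigen. The promoters of these genes are switched on by Ciita, which binds no DNA itself but sits on factors of the RFX, CREB and NF-Y families. Macrophages, dendritic cells and B cells of the lung carry class II constitutively or on activation. Interferon-γ can induce it in other cells, endothelium among them.

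In the coordinates of the files, on GRCm38, the 5 H2 genes lie within the class II region of chromosome 17. *H2-DMa* (ENSMUSG00000037649) spans 34135182 to 34139101 and *H2-DMb1* (ENSMUSG00000079547) spans 34153072 to 34160230, both on the plus strand. *H2-Ab1* (ENSMUSG00000073421, 34263209 to 34269418, plus strand), *H2-Aa* (ENSMUSG00000036594, 34282744 to 34287827, minus strand) and *H2-Eb1* (ENSMUSG00000060586, 34305877 to 34316199, plus strand) follow. *Ciita* (ENSMUSG00000022504) lies on chromosome 16 from 10488178 to 10527564, and *Cd74* (ENSMUSG00000024610) lies elsewhere. All are protein-coding. Of the 50-base windows of its longest GENCODE transcript, *H2-DMb1* shared 27.2% with the neighbouring paralog *H2-DMb2*, so its values and those of *H2-DMb2* are uncertain where reads fell on shared sequence. *Ciita* shared 0.269% with *Dexi*, and the other 5 genes shared 0. *H2-Eb1* overlaps the antisense gene *Gm20513*, *Ciita* overlaps *Dexi*, and *Cd74* overlaps *Mir5107*. Whether strand was used in counting is not given in the sources used here.

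The promoters are shown because a common element of class II promoters, the Y box bound by NF-Y, can be seen in them. In the sources used here, start sites from RefSeq (GRCm38.p6) were at hand for 4 of the 7 genes (*H2-Aa*, *H2-Eb1*, *H2-DMa* and *H2-DMb1*). The letters TGATTGG, searched on both strands (CCAATCA on the other), were found in 3 of them on the strand of the gene and are in capitals in the 150 bases before the start. They began 50 bases before the start in *H2-Aa* (chr17:34287824-34287973, minus strand), 61 in *H2-Eb1* (chr17:34305717-34305866, plus strand) and 63 in *H2-DMb1* (chr17:34153041-34153190, plus strand).
H2-Aa: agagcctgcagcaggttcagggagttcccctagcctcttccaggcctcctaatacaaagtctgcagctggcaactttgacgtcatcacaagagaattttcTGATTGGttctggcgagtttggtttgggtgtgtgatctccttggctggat
H2-Eb1: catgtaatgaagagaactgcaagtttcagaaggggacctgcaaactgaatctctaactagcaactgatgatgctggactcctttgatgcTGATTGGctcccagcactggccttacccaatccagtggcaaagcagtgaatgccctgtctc
H2-DMb1: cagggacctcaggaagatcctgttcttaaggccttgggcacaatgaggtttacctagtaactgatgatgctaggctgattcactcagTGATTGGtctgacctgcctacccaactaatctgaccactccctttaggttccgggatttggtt
Of 32851 RefSeq windows of the same kind (250 bases before to 50 after a start), 7.82% held the letters on either strand. The windows of the *H2-DMa* starts, which lie upstream of the gene start of the files, did not hold them. A match is a description of the sequence, not a bound site.

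The deposited FPKM (fragments scaled to transcript length and to the mapped fragments of the library) of most genes differed between the *Acta2-tdT* bleomycin mice and the groups they were compared with, and the class II genes have to be read against that. The sum over nuclear protein-coding genes lay between 241916 and 466183 FPKM in the *Acta2-tdT* mice given bleomycin and between 29727 and 147467 in the other 12 mice. Each comparison is therefore given on both the FPKM as deposited and scaled FPKM, in which the nuclear protein-coding sum of every mouse was set to the median sum of 51979. Depth is unknown, since FPKM keep no counts. *Acta2* had 139 to 3211 FPKM in the 8 *Acta2-tdT* mice and 0.83 to 19.4 in the 8 *Pdgfra-tdT* mice, so *Acta2* followed the line. *Pdgfra* had 0.98 to 3.82 FPKM in *Pdgfra-tdT* mice, 0.27 to 0.56 in *Acta2-tdT* mice with saline and 2.49 to 11.9 in *Acta2-tdT* mice with bleomycin. With bleomycin it was higher in *Acta2-tdT* than in *Pdgfra-tdT* cells as deposited, against the line label (1.60, adjusted p = 0.00894), and not called scaled (-0.30, adjusted p = 0.407). Leukocyte genes were present in the sorted cells: *Ptprc* (CD45) had 0.36 to 26.3 FPKM over the 16 mice. In these bulk samples fewer cells of a type and less RNA per cell cannot be told apart.

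The class II signal was made up mainly of the chains and *Cd74*. As a share of the summed FPKM of the 7 genes, which is a level per transcript length, *H2-Ab1* held 31.4% ± 5.77, *H2-Aa* 25.6% ± 4.25, *Cd74* 18.7% ± 4.29 and *H2-Eb1* 18.6% ± 3.34 (SD, n = 16). *Cd74* and *H2-Eb1* were closer than their spread over all mice, with *Cd74* at 20.2% and *H2-Eb1* at 15.9% in *Pdgfra-tdT* saline mice and at 19.2% and 22.3% in *Acta2-tdT* saline mice, and *H2-Ab1* and *H2-Aa* differed by about their spread. The loading factors were lower, *H2-DMa* at 3.12% ± 1.21 and *H2-DMb1* at 2.21% ± 1.11, again closer to each other than their spread (SD, n = 16). *Ciita* held 0.363% ± 0.487 (SD, n = 16). In *Acta2-tdT* cells the share of *H2-Ab1* was 26.3% ± 3.24 with saline and 36.6% ± 2.31 with bleomycin (SD, n = 4). That of *H2-Aa* was 29.4% ± 3.003 and 20.8% ± 1.64 in the same groups (SD, n = 4). The shares of *H2-DMa* lay between 1.33% and 1.95% with saline and between 2.45% and 3.79% with bleomycin, and those of *H2-DMb1* between 0.695% and 1.22% and between 2.02% and 2.89%. In *Pdgfra-tdT* cells the shares of *H2-Ab1* overlapped, between 26.3% and 35.3% with saline and between 23.5% and 40.6% with bleomycin.

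**Figure D1:**
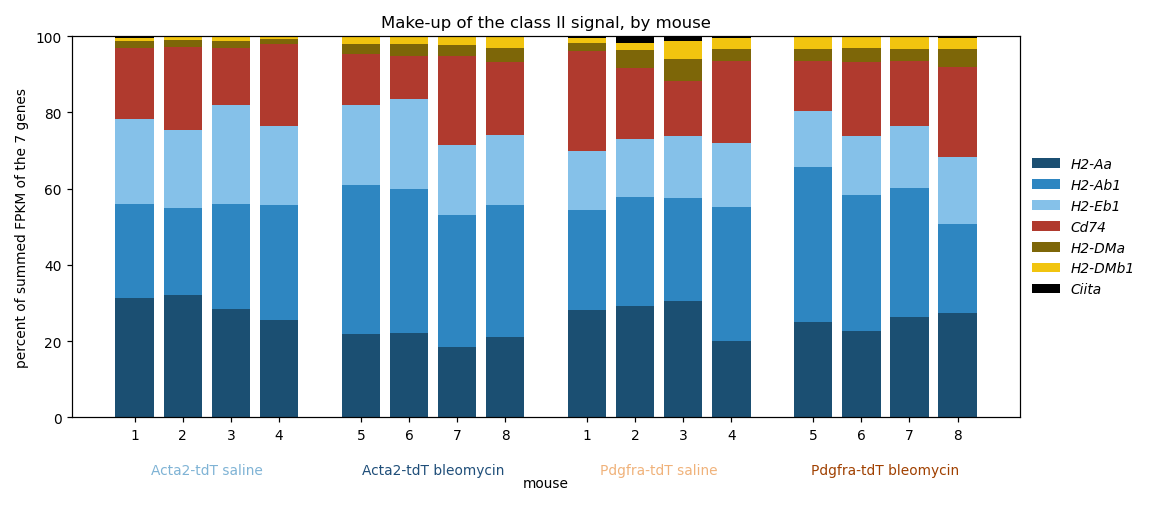
Stacked bars give, for each of the 16 mice (x axis, mouse number within its line), the percent of the summed FPKM of the 7 class II genes held by each gene (y axis, 0 to 100). *H2-Ab1*, *H2-Aa*, *Cd74* and *H2-Eb1* fill most of every bar, and the share of *H2-Ab1* ranged from 22.8% to 40.6% over the mice.

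Bleomycin against saline in *Acta2-tdT* cells compares the cells sorted by the label of the smooth muscle actin promoter after each treatment. Tamoxifen began after the treatment, so which cells were labelled and how labelled cells changed cannot be told apart. As deposited, all class II genes were higher with bleomycin. *H2-Ab1*, the β chain of I-A, had 14.96, 15.2, 28.1 and 105 FPKM in saline mice 1 to 4 and 336, 515, 1148 and 403 FPKM in bleomycin mice 5 to 8. *H2-Aa*, its α chain, had 18.9, 21.5, 29.1 and 88.5 FPKM with saline and 187, 299.5, 614 and 243 FPKM with bleomycin. *H2-Eb1*, the β chain of I-E, had 13.3, 13.6, 26.6 and 71.6 FPKM against 179.8, 319.9, 609 and 213 FPKM. In each chain every bleomycin mouse lay above every saline mouse, and mouse 4 was the highest of the saline mice and mouse 7 the highest of the bleomycin mice. *Cd74*, the invariant chain on chromosome 18, had 11.3, 14.6, 15.4 and 74.2 FPKM with saline and 115, 154, 783 and 221 FPKM with bleomycin. *H2-DMa* had 1.18, 1.27, 1.76 and 4.62 FPKM with saline and 21.0, 41.9, 97.2 and 43.9 FPKM with bleomycin. *H2-DMb1* had 0.511, 0.549, 1.25 and 2.41 FPKM with saline and 17.3, 27.4, 70.1 and 33.5 FPKM with bleomycin. These 3 genes showed the same order of mice, with saline mouse 4 and bleomycin mouse 7 at the top and no overlap of the groups.

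Tested with limma on log2(FPKM + 1), with Benjamini-Hochberg adjustment over all genes tested, 6 of the 6 members that passed the filter rose (4 or more of the 8 mice at 1 FPKM or above, which *H2-DMb1* met through the bleomycin group). In this comparison 86.6% of 12523 genes were called, and 70.4% of those tested were called as higher, so the members' calls stand beside a change of most genes. The differences as deposited ran from 3.19 (*H2-Aa*, standard error 0.58, adjusted p = 0.000414) to 4.16 (*H2-Ab1*, standard error 0.66, adjusted p = 0.000187), with a median of 3.73 against 1.76 for all genes tested. The difference of *H2-DMb1* was 4.03 (standard error 0.46, adjusted p = 2.6e-05), that of *H2-DMa* 3.93 (standard error 0.50, adjusted p = 4.52e-05) and that of *Cd74* 3.43 (standard error 0.73, adjusted p = 0.00128). *Ciita* was not tested. All 7 members, *Ciita* included, had the bleomycin mice above all saline mice, as did 67.8% of the genes tested.

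**Figure D2:**
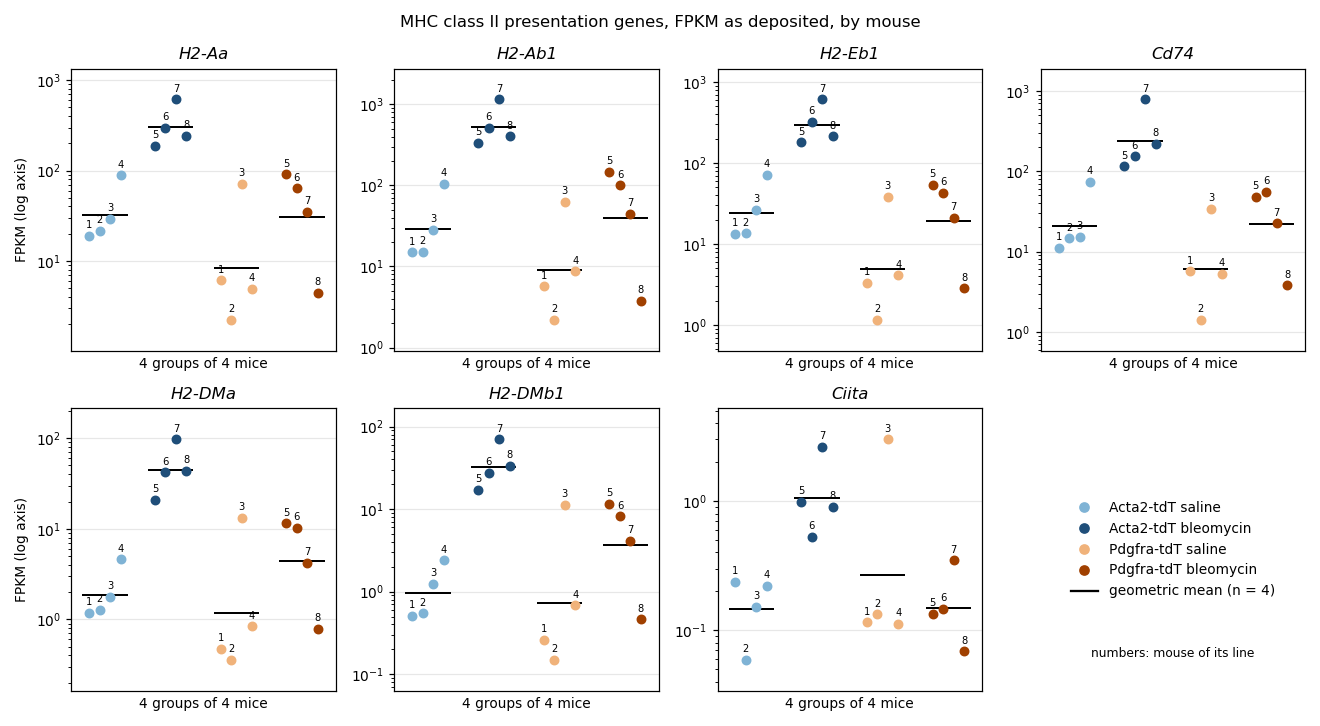
FPKM as deposited (y axis, log scale) of each class II gene in each mouse, by group; a point is 1 mouse with its number, and the bar is the geometric mean of 4 mice. *Acta2-tdT* bleomycin mice sit above *Acta2-tdT* saline mice in all 7 panels, and *Pdgfra-tdT* saline mouse 3 sits far above the other 3 mice of its group.

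After scaling, *H2-DMa* and *H2-DMb1* were called and the other 4 tested members were not. *H2-DMb1* had 0.700, 0.778, 1.315 and 2.05 scaled FPKM in saline mice 1 to 4 and 2.77, 5.88, 8.27 and 3.73 in bleomycin mice 5 to 8. Its groups did not overlap, which held for no other member and, in this direction, for 22% of the genes tested. *H2-DMb1* met the filter through the bleomycin mice, where it was higher, so its call and its lack of overlap are no support for a rise. *H2-DMa* had 1.61, 1.805, 1.85 and 3.94 scaled FPKM with saline and 3.36, 8.998, 11.5 and 4.90 with bleomycin, with saline mouse 4 above bleomycin mouse 5. *H2-DMb1* rose by 1.43 (standard error 0.31, adjusted p = 0.0034) and *H2-DMa* rose by 1.24 (standard error 0.36, adjusted p = 0.0153) in log2(scaled FPKM + 1). These 2 of 6 tested members stand against 56.9% of all genes called, 24.5% as higher. Of the chains, *H2-Ab1* lay between 20.5 and 89.4 scaled FPKM with saline and between 44.9 and 136 with bleomycin, a difference of 1.21 with a 95% interval from -0.02 to 2.44 (adjusted p = 0.0848). Those of *H2-Aa*, *H2-Eb1* and *Cd74* were 0.26, 0.60 and 0.51, with adjusted p from 0.331 to 0.652 and intervals that all held 0. The median over the 6 members was 0.91, against -0.01 for all genes tested. Leaving out saline mouse 4 added *H2-Ab1* to the calls, at 1.68 (adjusted p = 0.0111), where 54.3% of all genes were called. With all 16 mice in 1 fit neither loading gene was called (adjusted p = 0.114 for *H2-DMa* and 0.0681 for *H2-DMb1*), where 39.6% of all genes were.

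**Figure D3:**
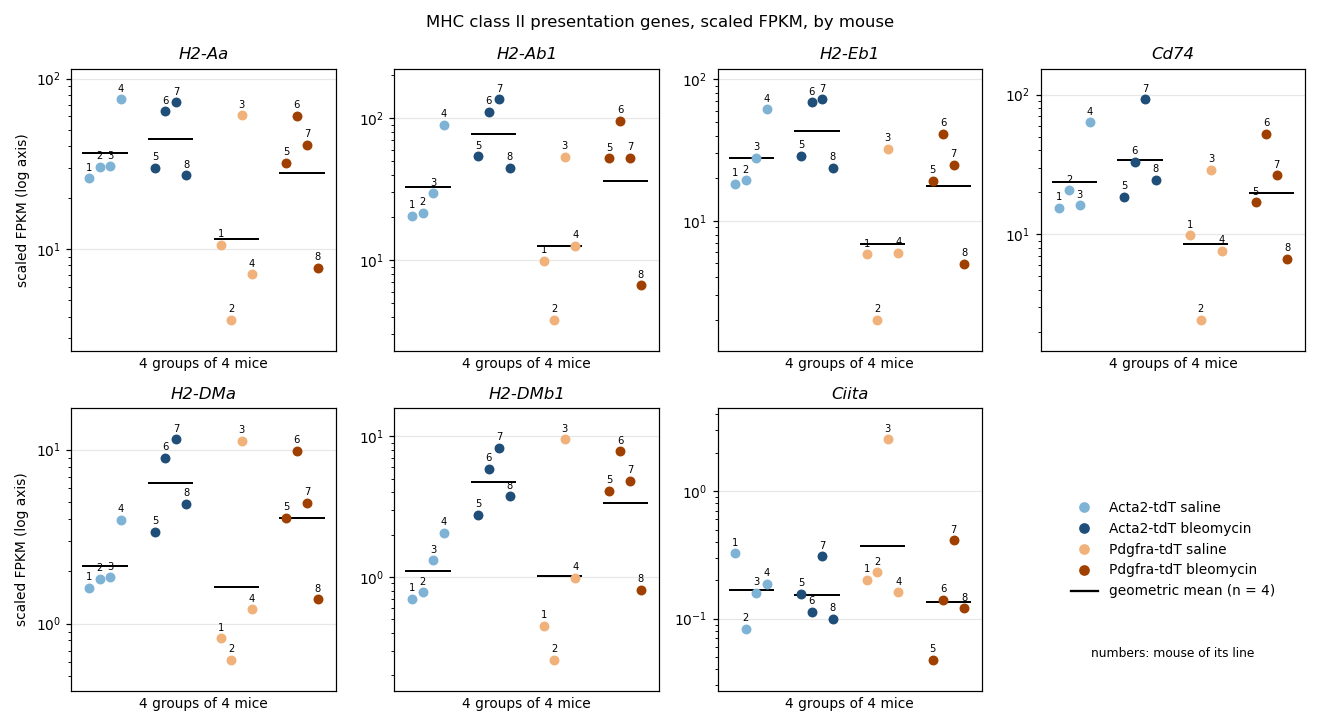
Scaled FPKM (y axis, log scale) of each class II gene in each mouse, by group, drawn as in the plot of deposited values. *H2-DMb1* is the 1 gene whose *Acta2-tdT* bleomycin mice (2.77 to 8.27) all lie above the *Acta2-tdT* saline mice (0.700 to 2.05). It met the filter of the test through these bleomycin mice.

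Between the lines with bleomycin, which compares the progeny of both promoters in the fibrotic lung, the class II genes were higher in *Acta2-tdT* cells as deposited. *H2-Ab1* had 148, 99.9, 44.5 and 3.80 FPKM in *Pdgfra-tdT* bleomycin mice 5 to 8, all below the lowest *Acta2-tdT* bleomycin mouse at 336. *Cd74* had 48.1, 55.1, 22.5 and 3.82 FPKM, against 115 in the lowest *Acta2-tdT* mouse. *H2-DMb1* had 11.7, 8.17, 4.10 and 0.464 FPKM, against 17.3. *Pdgfra-tdT* mouse 8 was the lowest of its group in all 7 genes. All 6 tested members passed the threshold (limma), with 79.6% of 11995 genes called and 71% called as higher. The differences as deposited ran from 2.63 (*H2-DMb1*, standard error 0.77, adjusted p = 0.00864) to 3.79 (*H2-Eb1*, standard error 1.01, adjusted p = 0.00502), with a median of 3.27 against 1.81 for all genes. The groups did not overlap in any of the 7 genes, nor in this direction in 56.8% of the genes tested. Without *Acta2-tdT* mouse 7, 4 members stayed past the threshold, and *H2-Aa* (adjusted p = 0.0514) and *Cd74* (adjusted p = 0.0507) did not, where 65.9% of all genes were called.

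Scaled, the lines with bleomycin were not told apart by these genes. *H2-Ab1* had 52.3, 95.4, 52.4 and 6.64 scaled FPKM in *Pdgfra-tdT* mice 5 to 8, and 53.7, 111, 136 and 44.9 in *Acta2-tdT* mice 5 to 8. *Cd74* had 17.0, 52.7, 26.5 and 6.68 scaled FPKM against 18.5, 33, 92.4 and 24.7. *Pdgfra-tdT* mouse 8 lay below every *Acta2-tdT* mouse in both genes and *Pdgfra-tdT* mouse 5 in *Cd74*, and the other values of the lines overlapped. By limma 0 of 6 members passed, where 34.7% of all genes did, and 0 members had an unadjusted p under 0.05. The differences were 0.31 to 1.21, with a median of 0.68 against 0.17 for all genes, and the widest interval, of *H2-Ab1*, ran from -0.85 to 2.94 on the log2 scale.

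In *Pdgfra-tdT* cells the group means of the 6 tested members were higher with bleomycin, and none was called. *H2-Ab1* had 5.68, 2.19, 62.7 and 8.71 FPKM in saline mice 1 to 4, beside the bleomycin values given. *H2-Aa* had 6.10, 2.21, 71.6 and 4.93 FPKM with saline and 91.1, 63.5, 34.8 and 4.41 FPKM with bleomycin. *H2-Eb1* had 3.35, 1.15, 38.1 and 4.11 FPKM with saline and 54.2, 43.2, 21.2 and 2.83 FPKM with bleomycin. In each gene saline mouse 3 reached the range of bleomycin mice 5 to 7, and bleomycin mouse 8 lay in the range of the other saline mice. As deposited, 0 of 6 members passed (limma), 0 had an unadjusted p under 0.05, and 0.124% of 7275 genes were called. The differences ran from 1.16 (*H2-DMa*, 95% interval -0.96 to 3.29) to 1.99 (*H2-Ab1*, 95% interval -0.97 to 4.95), all with an adjusted p of 0.791. Their median was 1.66, against 0.02 for all genes tested. Scaled, the differences ran from 0.82 to 1.44 (adjusted p = 0.746), and 0 of 6 members passed where 0.151% of genes did. Sample quality weights, which give less weight to mice far from their group, called 2 members as higher as deposited and 6 scaled, with 7.53% and 48.8% of all genes called.

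Between the lines with saline no class II gene was called over all 8 mice, and leaving out 1 mouse changed that. *Cd74* had 5.67, 1.41, 34.0 and 5.30 FPKM in *Pdgfra-tdT* saline mice 1 to 4, so that 3 mice lay below all *Acta2-tdT* saline mice (11.3 to 74.2) and mouse 3 among them. *H2-DMa* had 0.473, 0.358, 13.2 and 0.837 FPKM, with mouse 3 above every *Acta2-tdT* saline mouse. By limma 0 of 5 tested members passed as deposited, with 0 at an unadjusted p under 0.05 and 2.91% of 8153 genes called. The differences ran from 0.14 (*H2-DMa*, 95% interval -1.63 to 1.90) to 1.95 (*H2-Eb1*, 95% interval -0.24 to 4.15), all with *Acta2-tdT* higher in mean log2(FPKM + 1). In mean FPKM *H2-DMa* went the other way, at 2.21 in *Acta2-tdT* and 3.72 in *Pdgfra-tdT* saline mice. Scaled, 0 of 5 passed, 1 (*H2-Eb1*) had an unadjusted p under 0.05, and 3.26% of genes were called. Without *Pdgfra-tdT* mouse 3, 2 members (*H2-Aa* and *H2-Eb1*) were higher in *Acta2-tdT* cells as deposited, where 29.1% of genes were called, and all 5 were scaled, where 40.4% of genes were called. The scaled differences were then 0.77 (*H2-DMa*, adjusted p = 0.0485) to 2.47 (*H2-Eb1*, adjusted p = 0.0111). *H2-DMa* then lay under 1 FPKM in all 3 remaining *Pdgfra-tdT* mice and passed the filter through the *Acta2-tdT* mice alone, so its call is no support. With sample quality weights 4 members were called on either scale, with 33.3% of all genes called as deposited and 47% scaled.

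**Figure D4:**
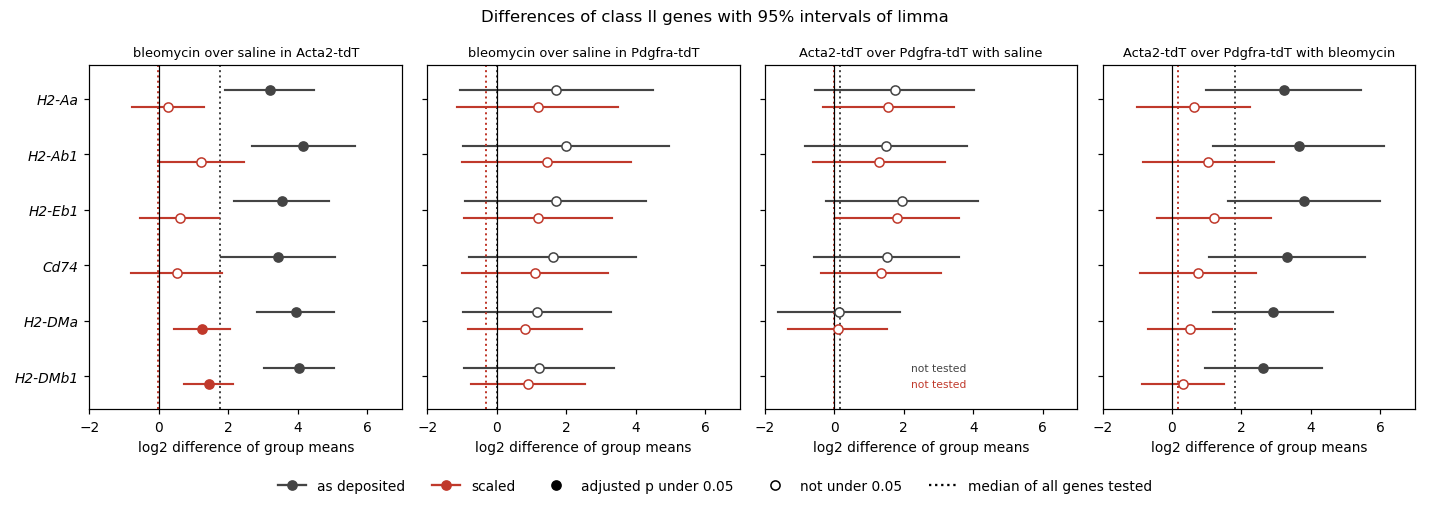
Difference of group means in log2(FPKM + 1), as deposited (grey) and scaled (red), for 6 class II genes in 4 comparisons of 4 against 4 mice; lines are 95% intervals of limma, filled points have an adjusted p under 0.05, and dotted lines mark the median of all genes tested. As deposited, the points of both comparisons with *Acta2-tdT* bleomycin mice lie between 2.63 and 4.16, and after scaling 2 points there remain filled.

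Whether bleomycin acted differently in the lines was tested by the interaction of line and treatment over 16 mice. As deposited, 0 of 6 members passed (limma), 2 had an unadjusted p under 0.05, and 39.8% of 16605 genes were called. *H2-DMb1* came closest, with a difference of effects of 2.81 (95% interval 0.47 to 5.15, adjusted p = 0.0536), and *H2-DMa* had 2.77 (95% interval 0.40 to 5.14, adjusted p = 0.059). Both were called without *Pdgfra-tdT* bleomycin mouse 5, where 56.8% of all genes were, and without *Pdgfra-tdT* saline mouse 2, where 38.8% were. *H2-DMa* alone was called without *Acta2-tdT* saline mouse 4 and *H2-DMb1* alone without *Pdgfra-tdT* saline mouse 1, where 39.2% and 38.7% of all genes were. Scaled, the 6 estimates lay between -0.93 (*H2-Aa*) and 0.52 (*H2-DMb1*), 0 passed and 0 had an unadjusted p under 0.05, where 2.08% of genes were called. Their intervals were wide, that of *H2-Ab1* from -2.86 to 2.39.

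*Ciita* was low nearly everywhere. It had 0.237, 0.0591, 0.152 and 0.220 FPKM in *Acta2-tdT* saline mice and 0.983, 0.529, 2.61 and 0.896 in *Acta2-tdT* bleomycin mice. In *Pdgfra-tdT* mice it had 0.116, 0.133, 2.996 and 0.112 FPKM with saline and 0.135, 0.147, 0.349 and 0.0689 with bleomycin. The highest value of all was thus that of *Pdgfra-tdT* saline mouse 3 (Cufflinks bounds 2.66 to 3.33). As a gauge of the low end of FPKM, 1412 olfactory and vomeronasal receptor genes were set beside it. Below *Ciita* lay 15.3% to 39.9% of these receptor genes in the *Acta2-tdT* mice given saline and 74.4% to 99.3% in those given bleomycin. The receptor genes themselves were lower with bleomycin, with a median of 0.326 FPKM in saline and 0.0534 FPKM in bleomycin mice (mean over 4 mice), so this share moved with both. In *Pdgfra-tdT* saline mouse 3 this share was 95.3%, and in the other 7 *Pdgfra-tdT* mice it was 20.2% to 54.5%. Scaled, *Ciita* lay between 0.0838 and 0.325 with saline and between 0.0999 and 0.308 with bleomycin in *Acta2-tdT* cells, so the groups overlapped. In *Pdgfra-tdT* saline mouse 3 it had 2.55 scaled FPKM, against at most 0.411 in any other mouse.

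Within groups the class II genes were high in the same mice, beside other cell type genes whose part in the result was not tested. In *Acta2-tdT* saline mice, mouse 4 was the highest in 6 of the 7 genes, with a summed 346 FPKM against 60.4 to 102 in mice 1 to 3. Its 10 macrophage genes summed to 439 FPKM, against 70.2 to 209 in mice 1 to 3, and *C1qb*, a complement chain of tissue macrophages, had 125 FPKM against 17.5 to 48.7. In *Acta2-tdT* bleomycin mice, mouse 7 was the highest in all 7 genes, with 3324 FPKM against 857 to 1358 in the others. Its macrophage genes summed to 9964 FPKM against 2276 to 4962, and its 5 leukocyte genes to 1560 against 700.3 to 923. As deposited, the same mice also had the highest sums of leukocyte, dendritic cell and class I genes of their groups, with 141 FPKM of class I genes in mouse 4 and 1324 in mouse 7, and mouse 4 had the highest nuclear protein-coding sum of its group. Scaled, both were still highest in macrophage and leukocyte genes, but dendritic cell genes were higher in mice 1 and 2 than in mouse 4 (5.11 and 4.67 against 3.61), and mouse 7 was below mouse 6 in dendritic cell (2.17 against 3.53) and class I genes (156 against 168).

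*Pdgfra-tdT* saline mouse 3 had high class II and the lowest leukocyte genes. Its 7 class II genes summed to 234 FPKM, against 7.61 to 24.7 in the other 3 mice of its group. Its leukocyte genes summed to 6.19 FPKM, the lowest of all 16 mice, and its macrophage genes to 42.3, at the low end of its group. *Ptprc* had 0.358 FPKM, *Spi1*, a transcription factor of myeloid cells, 0.429 and *Tyrobp*, a myeloid adaptor, 4.46. The ratio of *Cd74* to *Ptprc* was 95 in this mouse and at most 42.8 in the other 15. Its 4 endothelial genes summed to 323 FPKM, against 3.21 to 8.90 in the other saline mice of its line. *Pecam1* (CD31) had 39.1 FPKM, *Cldn5*, a tight junction protein of endothelium, 246, *Tek*, the angiopoietin receptor, 22.2 and *Cdh5*, VE-cadherin, 15.6. Class I genes were high as well, with 729 FPKM of *B2m* and 151 of *H2-K1*, against at most 15.6 and 3.84 in the other 3 mice. So was *Dcn*, a gene of the sorted mesenchymal list, at 44.1 FPKM against 1.25 to 3.99. The sum of that list was 65.2 FPKM against 9.43 to 25.3. Dendritic cell genes summed to 4.85 FPKM against 2.33 to 2.99, but scaled to 4.12 against 3.47 to 5.18. The nuclear protein-coding sum was 61168 against 29964 to 36087. Which of these went with class II was not tested.

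*Pdgfra-tdT* bleomycin mouse 5 had endothelial genes as high, with 65.9 FPKM of *Pecam1* and 741 of *Cldn5*, but with macrophage genes beside them (*Lyz2* 2861 FPKM). The endothelial sum was 87.2 FPKM in *Pdgfra-tdT* bleomycin mouse 6 and 25.2 in mouse 7, also above the 3.17 of mouse 8. The *Ciita* of mouse 5 was 0.135 FPKM. When saline mouse 3 and bleomycin mouse 5, the mice with the highest endothelial sums, were left out, a choice made after seeing the data, 0 of the tested members passed in *Pdgfra-tdT* cells on either scale. The share of all genes called in that comparison is not given here, so this 0 is not read as a result about the members. With these mice left out, 2 members passed the interaction as deposited (*H2-DMa* at 2.32, adjusted p = 0.0363, and *H2-DMb1* at 2.42, adjusted p = 0.0248) and 56.3% of all genes did.

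**Figure D5:**
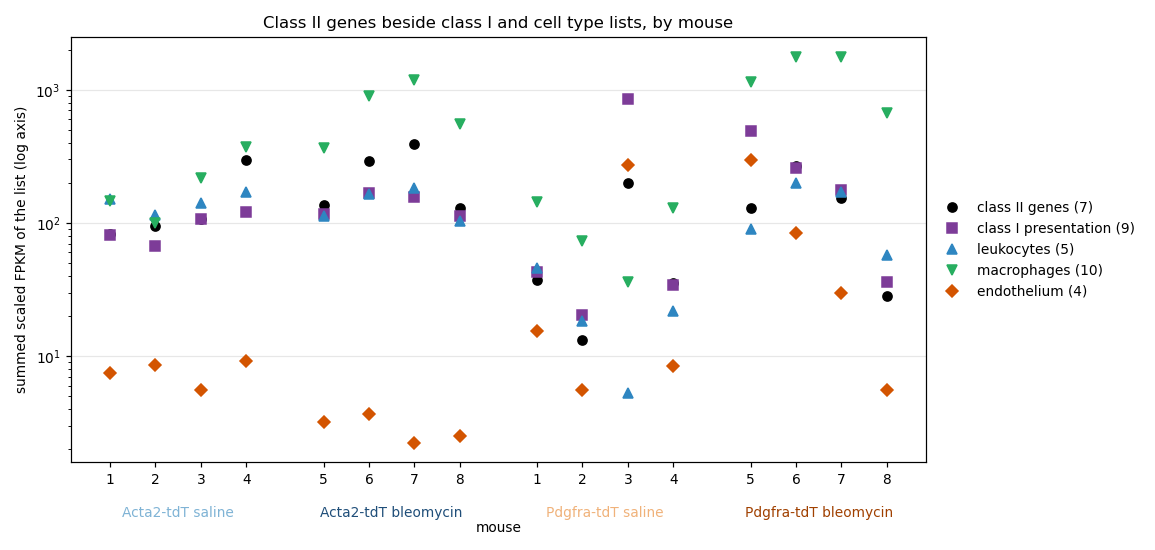
Summed scaled FPKM (y axis, log scale) of the 7 class II genes and of 4 other lists in each of the 16 mice (x axis), with the number of genes of each list in brackets. In *Pdgfra-tdT* saline mouse 3 the class II sum is 199 with an endothelial sum of 274 and a leukocyte sum of 5.26, whereas in the *Acta2-tdT* mice the endothelial sums are 2.23 to 9.20.

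Markers of other cells were also read, and their part in the result was not tested. Of 7 dendritic cell genes, 3 were tested with bleomycin in *Acta2-tdT* cells. *Zbtb46* (up to 4.12 FPKM) and *Itgax* (up to 8.66) rose as deposited, by 1.56 and 1.87, after lying under 1 FPKM in all 4 saline mice. Scaled, they differed by 0.004 and 0.29 (adjusted p = 0.983 and 0.206). *Cd209a*, at up to 8.29 FPKM, was not called as deposited (adjusted p = 0.159) and fell by 0.72 scaled (adjusted p = 0.0424). *Flt3*, *Xcr1*, *Clec9a* and *Ccr7* were not tested and had at most 0.459, 1.07, 3.27 and 1.96 FPKM in any mouse. The sum of 7 dendritic cell genes lay between 3.19 and 4.23 FPKM with saline and between 7.42 and 18.4 FPKM with bleomycin in *Acta2-tdT* cells. Scaled, it lay between 3.35 and 5.11 with saline and between 1.01 and 3.53 with bleomycin, so its direction depended on the scale. Of the B cell genes, *Cd79b* was tested, and it lay between 0.768 and 3.53 FPKM with saline and between 0.193 and 4.26 FPKM with bleomycin (adjusted p = 0.86 as deposited). Scaled, it fell by 1.303 (adjusted p = 0.000885). In *Acta2-tdT* cells 70.4% of all genes tested were called as higher as deposited and 24.5% scaled. Beside that, alveolar epithelial genes were present, and 4 of the 4 tested rose as deposited and 0 scaled. One of them, *Epcam*, lay under 1 FPKM in all 4 saline mice and passed the filter through the bleomycin mice alone. *Sftpc*, the surfactant protein of type II cells, reached 15.5 FPKM with saline and 221 with bleomycin there, and 78.5 in *Pdgfra-tdT* bleomycin mice.

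Of 6 other genes of the class II region, only *H2-DMb2* was tested. In *Acta2-tdT* cells *H2-DMb2* lay between 1.35 and 2.04 FPKM with saline and between 1.89 and 6.65 FPKM with bleomycin, a difference of 0.72 as deposited (adjusted p = 0.0597). Scaled, it fell by 0.93 (adjusted p = 0.00231), while *H2-DMb1* rose. Between the lines with bleomycin *H2-DMb2* was higher in *Acta2-tdT* cells as deposited (0.95, adjusted p = 0.0401), as the members were, and was not called scaled (-0.63, adjusted p = 0.199). The other 4 genes of the list that had a row, with *H2-Oa* and *H2-Ob*, which restrain H2-DM, among them, had at most 2.36 FPKM in any mouse and were not tested. *H2-Ea* had no row of that symbol, and *H2-Ea-ps*, by its symbol a pseudogene, was among these 4 genes. I-E protein was not measured, so the RNA of *H2-Eb1* does not show presentation by I-E.

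Of 13 genes that drive class II transcription, 11 were tested in bleomycin against saline in *Acta2-tdT* cells and 11 rose as deposited, with a median of 2.32. Over all genes tested 70.4% rose as deposited, with a median of 1.76, and 24.5% rose scaled, and the counts of each list here stand beside these shares. *Ifngr1*, a chain of the interferon-γ receptor, had 1.81 to 6.51 FPKM with saline and 43.3 to 109 with bleomycin, a difference of 4.07 (adjusted p = 2.75e-05). Scaled, 4 of the 11 rose (*Nfyb*, *Nfyc*, *Ifngr1* and *Ifngr2*), with a median of 0.10. *Nfyb* and *Jak2* lay under 1 FPKM in all 4 saline mice and passed the filter through the bleomycin mice alone. *Ifngr1* differed by 1.27 (adjusted p = 0.00422). Of 9 genes of invariant chain processing and class II turnover, 8 were tested there and 7 rose as deposited, with a median of 4.31. Scaled, 5 of these 8 rose and 1 fell. *Ctss*, the cathepsin that cuts the invariant chain in myeloid cells, rose by 2.93 scaled (adjusted p = 0.000456). *Ctsb* rose by 1.97, *Ifi30*, a lysosomal thiol reductase, by 1.89 and *Ctsl* by 1.10. The 1 that fell, named after its value was seen, was *March1*, a ubiquitin ligase that removes class II from the surface, which fell by 0.89 scaled (adjusted p = 0.00857). Of 7 tested class I presentation genes, 6 rose as deposited and 2 scaled (*Tap1* and *Tapbp*). *Tap1* lay under 1 FPKM in all 4 saline mice, so that it too passed the filter through the bleomycin mice alone. Of 9 tested macrophage genes 9 rose as deposited and 7 scaled. Of the 4 costimulation genes only *Cd40* was tested. It had 0.94 to 1.49 FPKM with saline and 0.91 to 6.598 with bleomycin, and it fell by 0.67 scaled (adjusted p = 0.0253).

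In *Pdgfra-tdT* cells 3 of the transcription, 5 of the processing, 5 of the class I and 6 of the macrophage genes were tested with bleomycin, and 0 passed on either scale (limma), where 0.124% of all genes passed as deposited and 0.151% scaled. The listed macrophage genes still summed to 382 to 3238 FPKM with bleomycin against 42.3 to 89.8 with saline. Scaled, these sums were 668 to 1778 against 35.9 to 143. The listed leukocyte genes summed to 32.8 to 257 FPKM against 6.19 to 26.6. The part of these genes in the class II values was not tested. *Ctss* had 4.80, 2.69, 3.40 and 8.20 FPKM with saline and 270.0, 232, 234 and 20.4 with bleomycin, with a difference of 4.62 as deposited (adjusted p = 0.361). Its groups did not overlap, which held in this direction for 1.43% of 7275 genes. *Ifi30* differed by 2.53 (adjusted p = 0.528). In the lines with bleomycin, 11 of 11 transcription genes and 6 of 9 processing genes were higher in *Acta2-tdT* cells as deposited, where 71% of all genes were. Scaled, 0 of 11 and 0 of 9 were, where 17.2% of all genes were.

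Ratios within a mouse do not depend on the scaling. In *Acta2-tdT* cells *H2-Ab1* had 1.05 to 1.83 times the FPKM of *Cd74* with saline and 1.47 to 3.35 times with bleomycin, with geometric means of 1.38 and 2.26 (exact two-sided permutation test, p = 0.0857, adjusted over 12 tests 0.857). *Cd74* had geometric means of 0.406 times the FPKM of *B2m*, the class I light chain, in *Acta2-tdT* bleomycin and 0.181 times in *Pdgfra-tdT* bleomycin mice (exact permutation test, p = 0.143, adjusted 0.857). *Pdgfra-tdT* mouse 5, at 0.0492 against 0.222 to 0.330 in mice 6 to 8, lowered this mean, which was 0.280 without it. The ratio of *Cd74* to *Ptprc* had geometric means of 9.04 with saline and 14.7 with bleomycin in *Acta2-tdT* cells (exact permutation test, p = 0.343, adjusted 0.96). Of the 12 tests, over 3 ratios and 4 comparisons, none had a p under 0.05, and 0.0286 is the smallest that 4 mice against 4 allow.

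As a description without a test, each member was compared with the mean of the other 6 over the 16 mice, in log2(scaled FPKM + 1). Pearson's r was 0.864 (*H2-DMb1*) to 0.964 (*H2-Ab1*) for the 6 expressed members and 0.236 for *Ciita*. With the group means subtracted it was 0.914 (*Cd74*) to 0.986 (*H2-Aa*), and 0.656 for *Ciita*. The 16 mice share their groups and protocol. Among 10358 other nuclear genes, those most like the mean of the 7 members were *Sirt2* (r = 0.938), *Fam21* (0.927), *Lrpap1* (0.924), *Tmem50b* (0.921) and *Cox5a* (0.920), with *Vamp8*, a SNARE protein of endosomes, at 0.916 and *Ifngr1* at 0.914. With the group means subtracted, *Sirt2* (0.936) and *Ucp2*, a mitochondrial carrier (0.935), came first. *Ctss* had an r of 0.527 with the mean of the members, and *Ctsl* and *Ctsb* had 0.853 and 0.828.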

How the data were processed

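The values analysed are FPKM per gene for 16 mice. Per the labels, the authors aligned reads with TopHat2 2.1.1 and Bowtie2 and computed the deposited FPKM with Cufflinks 2.1.1 on GRCm38, separately for each mouse. The annotation release is not given in the sources used here. Rows of 1 gene were summed, and 15 genes with a Cufflinks status other than OK were left out of the tests. Scaled FPKM are FPKM times 51979 divided by the mouse's nuclear protein-coding sum.

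Comparisons were fitted with limma 3.58.1 in R 4.3.3 (lmFit, eBayes with trend) on log2(FPKM + 1), keeping genes that reached 1 FPKM in 4 or more of the mice compared. Benjamini-Hochberg adjustment ran over all genes tested, at a threshold of 0.05. A fold change on this scale understates changes of low genes. Ratios were compared by exact two-sided permutation tests over the 70 labellings of 8 mice. Tables and plots used Python 3.11.15, pandas 2.3.3, NumPy 2.4.6, SciPy 1.17.1 and matplotlib 3.10.9. The fit was tested on simulated data.

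Depth is unknown. The labels do not say how the mice of a group were housed or processed, so p-values measure the spread between these mice. The text names the 7 members, at most 4 genes of each pathway list (those highest in mean FPKM or called; *March1* and *Jak2* were added after their values were seen), cell type markers, and the genes most correlated with the members. The members and lists were chosen with earlier results of these data known. Mice with the same number in both lines were not paired by any source. The alternatives were a pseudocount of 0.1, no filter, a replicate block between the lines, all 16 mice in 1 fit, sample quality weights, another target sum for scaling, the largest row per gene and each mouse left out in turn.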

Additional observations from a re-analysis of the deposited data

Results flagged for a closer look

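In each gene and group of 4 mice, the gap between the highest or lowest mouse and its neighbour was compared with the range of the group in log2(FPKM + 1) and with Dixon's critical value for groups of 4. Of 28 groups checked, 4 passed it, and chance flags about 1 in 20. The values of *Pdgfra-tdT* saline mouse 3 passed it in 3 genes, at 13.2 FPKM of *H2-DMa*, 11.2 of *H2-DMb1* and 2.996 of *Ciita*. The ratio of the gap to the range was 0.871, 0.838 and 0.985. The value of *Acta2-tdT* saline mouse 4 passed it in *Cd74*, at 74.2 FPKM with a ratio of 0.841. These genes were read in the same library of each mouse, so the 3 values of mouse 3 are not independent.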

How the results depend on the processing

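Of 149 alternatives of the 10 counts of members called, 135 kept the count within 1.5 times, 13 called more members and 1 called fewer. Sample quality weights called 2 members in bleomycin against saline in *Pdgfra-tdT* cells as deposited and 6 scaled, and 4 between the lines with saline on either scale. With all 16 mice in 1 fit, 0 members were called in *Acta2-tdT* cells scaled. With each mouse left out in turn, 0 to 2 members were called between the lines with saline as deposited, 0 to 5 scaled, and 0 to 2 in the interaction as deposited. Leaving out *Pdgfra-tdT* saline mouse 3 and bleomycin mouse 5 together, an alternative chosen after seeing the data, called 2 members between the lines with saline as deposited (29.1% of all genes), 5 scaled (40.4%) and 2 in the interaction as deposited (56.3%).

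The sign turned only in differences that were not called. With each mouse left out, *H2-DMa* ranged from -0.19 to 0.94 as deposited and from -0.20 to 0.77 scaled between the lines with saline. *H2-DMb1* ranged from -0.14 to 0.62 scaled between the lines with bleomycin. In the scaled interaction, *H2-Ab1* ranged from -1.01 to 0.28, *H2-DMa* from -0.26 to 0.77 and *H2-DMb1* from -0.17 to 0.85. With both mice left out, *H2-DMa* was at -0.28 and *H2-DMb1* at -0.13 there.

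The replicate block between the lines left 0 members called with saline and 6 with bleomycin as deposited, and 0 in both scaled. Over all genes it called 36 against 237 with saline and 9379 against 9553 with bleomycin as deposited. Scaled, 3.26% of genes with saline and 34.7% with bleomycin were called without the block, and the shares with the block are not given here. The mice share only a number. The correlations of same-numbered mice ran from -0.251 to 0.125, and 2 of 8 *Acta2-tdT* mice correlated best with their own number. No paired analysis was possible for bleomycin against saline because these mice carry different numbers. Leaving out 1 mouse, also chosen after seeing the data, moved some geometric mean ratios in *Pdgfra-tdT* mice by more than 1.5 times. *Cd74* to *B2m* moved from 0.181 to 0.280 without bleomycin mouse 5 and from 0.191 to 0.306 without saline mouse 3. *Cd74* to *Ptprc* with saline moved from 8.68 to 14.9 without mouse 2 and to 3.91 without mouse 3. Each member had 1 row, so the largest row gave the same FPKM. Without the filter, *Ciita* was also called higher with bleomycin in *Acta2-tdT* cells as deposited, making 7 members. With the filter 70.4% of the genes tested were called as higher there, and the share without the filter is not given here. Depth is unknown, and *Ciita* is near the level of receptor genes in most mice.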
